A study of Mus musculus with 13 samples.

Results

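The enzymes that make ceramide and release it again were examined in liver RNA of WT and Nod2-/- mice. The 10 genes were chosen by name for their biochemical roles, with earlier results of these data known. They were the serine palmitoyltransferase subunits Sptlc1 and Sptlc2, the ceramide synthases Cers2, Cers4, Cers5 and Cers6, and the desaturases Degs1 and Degs2. The acid ceramidase Asah1 and the acid sphingomyelinase Smpd1 completed the list. All were found by gene symbol, once the Ensembl identifiers of the count table were matched to symbols, as 10 of its 53465 genes. The 6 WT mice and 7 Nod2-/- mice were of the BALB/c strain, and each gave 1 liver library. All 13 had received the carcinogen DMBA, applied on the skin of pups, and 30 weeks of a high-fat diet (HFD) according to the labels, which also give an age of 30 weeks and cancer as the disease state of all, so that both groups shared carcinogen and diet and no untreated or chow-fed liver is compared here. The study's own text puts the diet slightly longer than the labels do. It also reports more weight gain in Nod2-/- than in WT males on this carcinogen and diet. By its account, these Nod2-/- males lost weight late in the diet, and a larger share of them than of WT males had liver tumors. The shared label of cancer therefore does not mean an equal tumor load in both groups. The mice were males from several breeder pairs, and WT and Nod2-/- were not littermates. Nod2 codes for an intracellular sensor of bacterial peptidoglycan. The study established its deletion in the Nod2-/- mice by PCR of genomic DNA.

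Ceramide is the central molecule of sphingolipid metabolism. Serine palmitoyltransferase starts its synthesis by joining serine to palmitoyl-CoA, a ceramide synthase adds a second acyl chain, and a desaturase introduces the double bond that turns dihydroceramide into ceramide. The ceramide synthases differ in the chain they prefer: Cers2 favors very long chains, Cers4 chains of intermediate length, and Cers5 and Cers6 the palmitoyl chain. Ceramide is also released from sphingomyelin by sphingomyelinases and is cleaved to sphingosine by ceramidases. In liver, fatty diets and insulin resistance are known to go along with altered ceramide pools, and the acyl chain decides much of what a ceramide does.

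The libraries held 14886273 to 20579984 counts on genes in the WT group and 13824780 to 19391431 in the Nod2-/- group. Nod2 itself had 0 to 4 counts in the WT livers and 1 to 6 in the Nod2-/- livers (two-sided exact permutation test, p = 0.385), too few to check the genotype. The tissue label fitted its hepatocyte markers. All 10 genes of a hepatocyte list, from Alb to Cyp2e1, were expressed, and their summed level was 91388 to 125940 CPM (counts scaled to library size) in WT livers and 93040 to 178420 in Nod2-/- mice. Some livers stood apart in genes of other cell types. A list of 7 cholangiocyte genes summed to 35.8 to 217 CPM in the WT group and 108 to 402 in the Nod2-/- group, with WT replicate 3 the highest WT mouse. Of its 6 tested genes, 1 was higher and 0 lower in Nod2-/- mice at the threshold of 5% false discovery rate by edgeR. Over all genes tested, 0.650% were higher and 0.509% lower. The 10 neutrophil genes summed to 4.29 to 11.2 CPM in WT and 7.01 to 1020 in Nod2-/- livers, with Nod2-/- replicate 7 the highest. The sums were 171 to 324 CPM in WT and 206 to 613 in Nod2-/- livers for 10 macrophage genes. For 7 sinusoidal endothelial genes they were 179 to 253 and 198 to 264. For 7 stellate cell genes they were 215 to 429 and 234 to 316. For 9 lung epithelium genes they were 14.1 to 200 and 2.93 to 32.9. Of the tested genes of these 4 lists and of the neutrophil and hepatocyte lists, 0 were past the threshold. Only 5 of the 10 neutrophil, 5 of the 9 lung epithelium and 6 of the 7 cholangiocyte genes had enough counts to be tested. The 0 therefore does not cover the rest of these lists. The study, using DESeq2 on these samples, reports higher levels in Nod2-/- livers of immune genes that include Camp, Elane, Csf3r, S100a8 and S100a9. No gene of the 7 lists was at 0 counts in all mice. In such bulk RNA, fewer cells of a type and less RNA per cell cannot be told apart.

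None of the ceramide enzymes passed the threshold between Nod2-/- and WT livers. Of the 10 genes, 9 had enough counts to be tested, and 0 were higher and 0 lower in Nod2-/- mice at 5% false discovery rate (FDR). The test was edgeR's quasi-likelihood test, adjusted by Benjamini-Hochberg over all 13545 genes tested. Over all genes tested, 0.650% were higher and 0.509% lower by this rule. At an unadjusted p under 0.05, 4 of the 9 were higher in Nod2-/- mice (Cers4, Cers5, Degs1 and Asah1) and 1 was lower (Cers2), against 12.9% and 10.2% of all genes tested. The log2 fold changes of the 9 genes ran from -0.32 to 0.66 with a median of 0.35, and the median over all 13545 genes was 0.02. The smallest adjusted p was 0.0838, for Cers4. DESeq2, the tool of the study, placed 2 of the genes (Cers4 and Cers5) among the higher and 1 (Cers2) among the lower at 5% FDR, where it placed 4.38% and 4.03% of all genes. With DESeq2's filter left at its setting for 10% FDR, 1 remained higher (Cers4) and 1 lower (Cers2), against 3.81% and 3.45% of all genes.

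**Figure D1:**
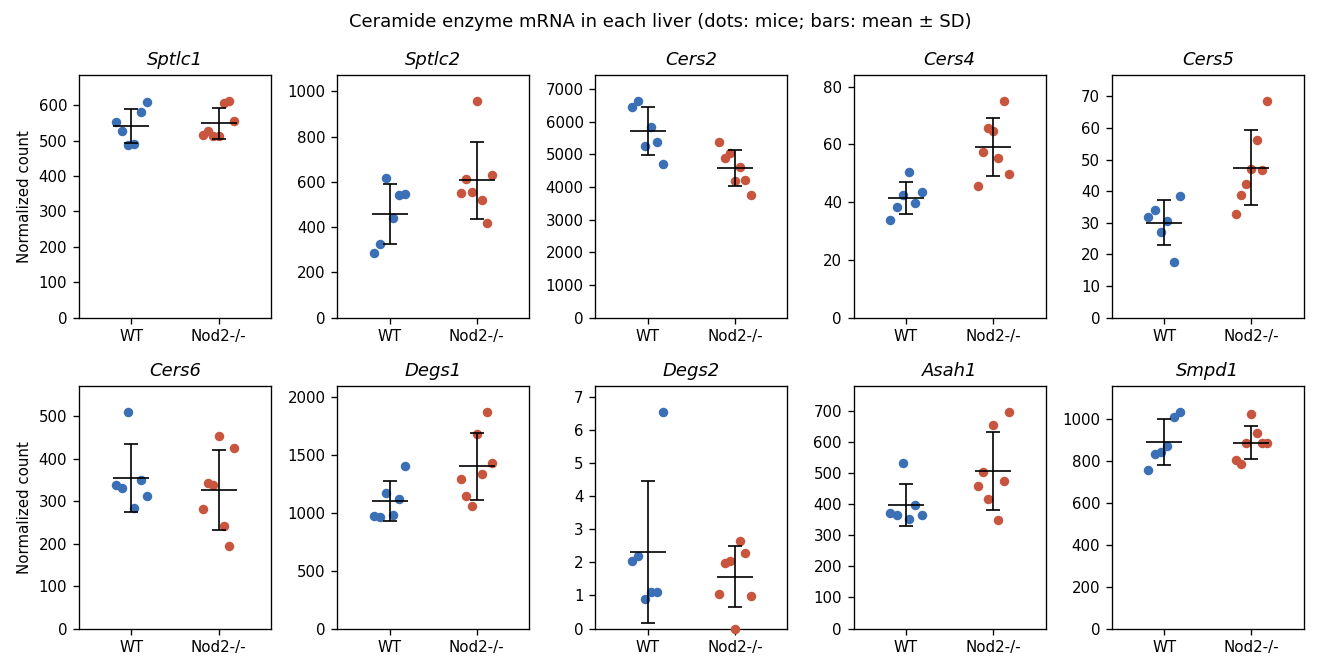
Normalized counts (y axis, from 0, a different scale in each panel) of the 10 ceramide enzyme genes in the liver of each WT mouse (blue dots, n = 6) and Nod2-/- mouse (red dots, n = 7), with the group mean and SD in black. The dots of the groups overlap in every panel, Cers2 sits lower and Cers4 and Cers5 higher in most Nod2-/- mice, and Degs2 stays under 7 normalized counts.

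The first step of ceramide synthesis was examined through its paired subunits. Sptlc1 (ENSMUSG00000021468.8, chromosome 13, 53332748 to 53377397 of GRCm38) codes for the subunit that anchors the enzyme and is needed for its stability. It had 488 to 610 normalized counts in WT mice (median 540) and 512 to 612 in Nod2-/- mice (median 528), where a normalized count is the count set to a library of average effective size. The ranges coincided almost fully. The means were 542 ± 48.9 (SD, n = 6) and 549 ± 44.3 (SD, n = 7), for a log2 fold change of 0.02 with a 95% interval of -0.15 to 0.19 (adjusted p = 0.906 by edgeR).

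Sptlc2 (ENSMUSG00000021036.10, chromosome 12, 87305058 to 87388355) codes for the subunit that carries the catalytic cofactor. Its normalized counts were 284 to 615 in WT mice (median 492) and 418 to 958 in Nod2-/- mice (median 556). Nod2-/- replicate 4 was far above the other Nod2-/- mice, of which the next had 632, and WT replicate 3 was the highest WT mouse. Nod2-/- replicate 4 was also the highest Nod2-/- mouse in the hepatocyte list (178420 CPM, next 122834) and the cholangiocyte list (402 CPM, next 297), and the part of these cells in its Sptlc2 value was not tested. The log2 fold change was 0.40 (standard error 0.20, 95% interval -0.03 to 0.84, adjusted p = 0.248 by edgeR). It was 0.26 without Nod2-/- replicate 4 and 0.49 without WT replicate 3, and neither fit placed it past the threshold. The SD between mice of a genotype was 132 in WT and 170 in Nod2-/- mice, and thus wider than that of Sptlc1.

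The genes around this step were taken from a list of partners and regulators. Of these, 5 of 7 were tested and 0 passed in either direction, where 0.650% of all genes tested were higher and 0.509% lower. Sptssa, a small activating subunit, had a mean of 980 ± 189 (SD, n = 6) in WT mice and 1274 ± 229 (SD, n = 7) in Nod2-/- mice (log2 fold change 0.38, adjusted p = 0.134 by edgeR). Kdsr, the reductase of the next step, had 351 ± 58.3 and 292 ± 33.9 (log2 fold change -0.27, adjusted p = 0.176 by edgeR). The ORMDL proteins restrain the enzyme when sphingolipids are plentiful, and the log2 fold changes of Ormdl1, Ormdl2 and Ormdl3 were -0.20, 0.04 and -0.20, with adjusted p of 0.280 or more by edgeR. Of the remaining members of this list, Sptlc3 had at most 6 counts in a mouse, and Sptssb had at most 2 counts in WT mice and 0 in Nod2-/- mice, which is not detected at a floor of 3 counts per library.

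The ceramide synthases held the members nearest to the threshold, and they did not move one way. Cers2 (ENSMUSG00000015714.11, chromosome 3, 95314791 to 95323599), the main ceramide synthase of liver, had 4710 to 6644 normalized counts in WT mice (median 5612) and 3770 to 5376 in Nod2-/- mice (median 4619). Of the 7 Nod2-/- mice, 4 were below every WT mouse, and 3 of the 6 WT mice were above every Nod2-/- mouse. The WT mean was 5714 ± 741 (SD, n = 6), the Nod2-/- mean 4586 ± 561 (SD, n = 7), and the log2 fold change was -0.32 (standard error 0.11, 95% interval -0.55 to -0.08, adjusted p = 0.117 by edgeR). By DESeq2 the adjusted p was 0.0383, and by an exact permutation test of the normalized counts, unadjusted, p was 0.0111. Cers2 shares 219 bases of exon with genes on the opposite strand (Setdb1 and 6330562C20Rik), and whether the counting used strand is not given in the sources used here.

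Cers4 (ENSMUSG00000008206.16, chromosome 8, 4493026 to 4531680) was much rarer, with 33.8 to 50.4 normalized counts in WT mice (median 41.1) and 45.5 to 75.1 in Nod2-/- mice (median 57.5). Here 5 of 7 Nod2-/- mice were above every WT mouse. The means were 41.4 ± 5.58 (SD, n = 6) and 59.1 ± 10.2 (SD, n = 7), a log2 difference of 0.51 ± 0.15 (standard error, edgeR adjusted p = 0.0838). The adjusted p was 0.0456 by DESeq2, and the unadjusted p was 0.00408 by the exact permutation test. Its exons share 1100 bases with annotated pseudogenes or predicted genes on the opposite strand.

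Cers5 (ENSMUSG00000023021.15, chromosome 15, 99734881 to 99772885) had 17.7 to 38.5 normalized counts in WT mice (median 31.2) and 32.8 to 68.5 in Nod2-/- mice (median 46.7). All but 1 of the Nod2-/- mice, 6 of 7, lay above the top of the WT range, with Nod2-/- replicate 7 the highest. The log2 fold change was 0.66 (standard error 0.21, 95% interval 0.21 to 1.11, adjusted p = 0.0966 by edgeR), and it was 0.55 without Nod2-/- replicate 7. By DESeq2 the adjusted p was 0.0490, or 0.0529 with the filter for 10% FDR, and by the exact permutation test the unadjusted p was 0.00524.

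Cers6 (ENSMUSG00000027035.10, chromosome 2, 68861441 to 69114282), which shares with Cers5 the preference for the palmitoyl chain, gave another picture. It had 285 to 511 normalized counts in WT mice (median 335) and 193 to 455 in Nod2-/- mice (median 339). WT replicate 3 stood far above the other WT mice, of which the next had 349. The log2 fold change was -0.12 (standard error 0.19, 95% interval -0.53 to 0.28, adjusted p = 0.724 by edgeR) and -0.003 without WT replicate 3. The other family members, Cers1 and Cers3, had at most 1 and 4 counts in a mouse, and Cers1 was not detected in either genotype.

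Since levels of different genes can be compared only per length, RPKM, which scale reads by exon length and library size, were used to describe the makeup of the family. Cers2 made up 96.7% ± 0.75 (SD, n = 6) of the summed RPKM of the 4 ceramide synthases in WT mice and 95.7% ± 1.30 (SD, n = 7) in Nod2-/- mice. Cers6 followed with 2.53% and 2.87%, Cers5 with 0.53% and 1.06%, and Cers4 with 0.21% and 0.38%. The shares of Cers4 ran from 0.15% to 0.27% in the WT group and from 0.25% to 0.52% in the Nod2-/- group, and those of Cers5 from 0.33% to 0.82% and from 0.61% to 1.76%. Both pairs of ranges overlapped, and Cers2 held over 93% in every liver. With the median length of the coding transcripts in place of all exons, the mean shares in WT and Nod2-/- mice were 98.1% and 97.4% for Cers2, 1.25% and 1.42% for Cers6, 0.49% and 0.99% for Cers5, and 0.12% and 0.22% for Cers4.

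**Figure D2:**
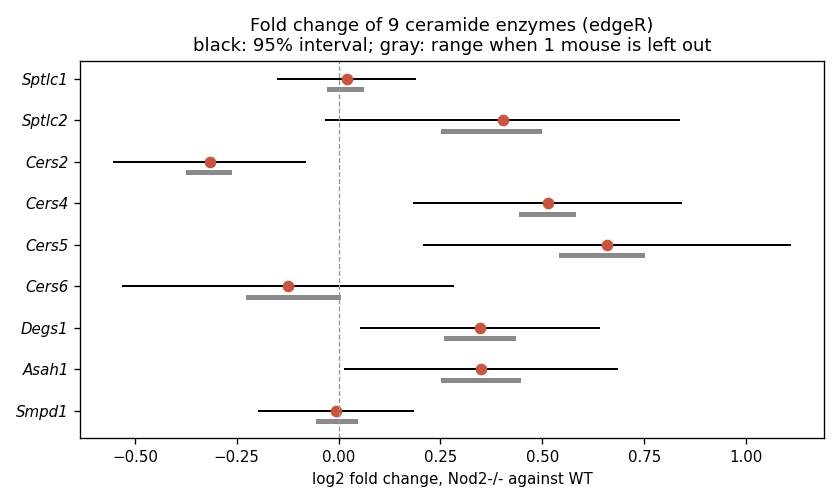
Log2 fold change of Nod2-/- against WT mice (x axis) for the 9 tested ceramide enzyme genes (y axis) by edgeR, with the 95% interval as a black line and, in gray, the range of the 13 fits that each left out 1 mouse. In all these fits Cers2 and, only just, Cers6 lie below 0, and Sptlc2, Cers4, Cers5, Degs1 and Asah1 lie above 0. The intervals of Sptlc1, Sptlc2, Cers6 and Smpd1 span 0.

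The desaturases differed mainly in their abundance. Degs1 (ENSMUSG00000038633.5, chromosome 1, 182275772 to 182282804), which makes the double bond of ceramide, had 963 to 1404 normalized counts in WT mice (median 1047) and 1056 to 1873 in Nod2-/- mice (median 1334). The upper 3 Nod2-/- mice exceeded every WT mouse, and the rest lay within the WT range. The WT mean was 1101 ± 171 (SD, n = 6) and the Nod2-/- mean 1401 ± 289 (SD, n = 7). The log2 fold change was 0.35 (95% interval 0.05 to 0.64, standard error 0.14, adjusted p = 0.153 by edgeR and 0.142 by DESeq2).

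Degs2 (ENSMUSG00000021263.11, chromosome 12, 108678711 to 108702315) codes for the related enzyme that can also hydroxylate the chain to phytoceramide, known mainly from skin and gut. It had 0 to 8 counts in a liver and was left out of the test by the filter on low counts. Its normalized counts were 0.90 to 6.55 in the WT group and 0 to 2.64 in the Nod2-/- group (exact permutation test, p = 0.531), and WT replicate 6 alone was above 2.64. A difference was not detectable at this depth. Degs2 also shares 278 bases of exon with Evl on the opposite strand.

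The lysosomal enzymes that release and cleave ceramide did not pass the threshold. Asah1 (ENSMUSG00000031591.14, chromosome 8, 41340197 to 41374773), the acid ceramidase, had 354 to 534 normalized counts in WT mice (median 370) and 349 to 698 in Nod2-/- mice (median 476). WT replicate 3 was far above the other WT mice, of which the next had 398, and Nod2-/- replicate 7 was the highest of all. The log2 fold change was 0.35 (standard error 0.16, 95% interval 0.02 to 0.68, adjusted p = 0.199 by edgeR). It was 0.44 without WT replicate 3 and 0.26 without Nod2-/- replicate 7. These mice were also the highest of their genotype in other lists, WT replicate 3 in cholangiocyte, stellate cell and sinusoidal endothelial genes and Nod2-/- replicate 7 in macrophage, neutrophil and sinusoidal endothelial genes, and the part of these cells in the Asah1 values was not tested.

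Smpd1 (ENSMUSG00000037049.9, chromosome 7, 105554360 to 105558389), the acid sphingomyelinase, had 759 to 1038 normalized counts in WT mice (median 858) and 789 to 1024 in Nod2-/- mice (median 888). The WT range enclosed the Nod2-/- range. The log2 fold change was -0.01 with a 95% interval of -0.20 to 0.18 (adjusted p = 0.972 by edgeR), and the standard errors of Smpd1 (0.09) and Sptlc1 (0.08) were the smallest of the 9 genes.

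Per length, the enzymes came in the same order of means in both genotypes. By mean RPKM in WT mice, Cers2 led with 93.6 ± 12.1 (SD, n = 6), followed by Degs1 (25.6), Smpd1 (16.1), Sptlc1 (9.17), Asah1 (7.08), Sptlc2 (3.41), Cers6 (2.41), Cers5 (0.51), Cers4 (0.20) and Degs2 (0.05). In Nod2-/- mice the means were 75.1 ± 9.19 (SD, n = 7) for Cers2, 32.6 for Degs1, 16.04 for Smpd1, 9.29 for Sptlc1, 9.03 for Asah1, 4.51 for Sptlc2, 2.21 for Cers6, 0.81 for Cers5, 0.29 for Cers4 and 0.04 for Degs2. The ranges over mice of Sptlc1 and Asah1 overlapped in both genotypes, those of Sptlc2 and Cers6 in WT mice and those of Asah1 and Sptlc2 in Nod2-/- mice, and the other neighbors in this order had ranges that did not overlap. By the length of the coding transcripts, Asah1 came before Sptlc1 and, in WT mice, Cers6 before Sptlc2.

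**Figure D3:**
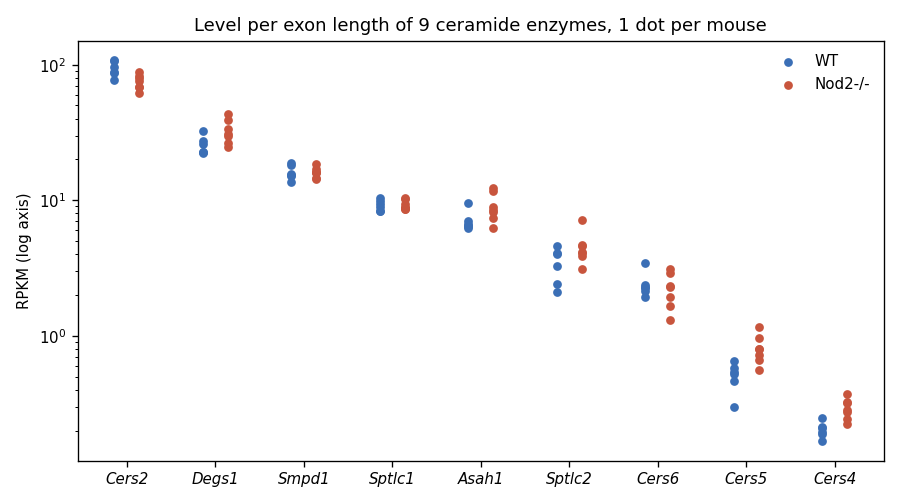
RPKM (y axis, log scale) of 9 ceramide enzyme genes in each WT mouse (blue, n = 6) and Nod2-/- mouse (red, n = 7), ordered by the WT mean, without Degs2, which was at 0 in 1 mouse. Cers2 lies highest in all 13 mice and Cers4 lowest.

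Whether enzymes of related steps varied together between livers was asked for 3 pairs, with Pearson's r and Spearman's rho on log2 CPM and p by permutation, adjusted over the 3 pairs. For Sptlc1 and Sptlc2, r was -0.20 (permutation p = 0.510, adjusted 0.862) and rho -0.37 (p = 0.217, adjusted 0.650) over 13 mice. Within genotypes r was 0.02 in the 6 WT mice and -0.64 in the 7 Nod2-/- mice (exact permutation p = 0.960 and 0.120). For Cers5 and Cers6, r was -0.15 (permutation p = 0.637, adjusted 0.862) and rho -0.12 (p = 0.694, adjusted 0.834), with r of -0.29 in WT and 0.19 in Nod2-/- mice. For Asah1 and Smpd1, r was 0.05 (permutation p = 0.862, adjusted 0.862) and rho -0.07 (p = 0.834, adjusted 0.834), with r of -0.11 in WT and 0.21 in Nod2-/- mice. Without the 2 mice farthest from the median of the first gene, r was -0.17, -0.45 and -0.35 for the respective pairs. No relation was detected in any of the 3 pairs. With 13 mice at most, and only 16 to 70 counts of Cers5 in a mouse, all but a strong relation could be missed.

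Beyond the 10 enzymes, a list of 54 other genes of sphingolipid metabolism was written out by role, of which 44 were tested. None was past 5% FDR in either direction by edgeR, with a median log2 fold change of 0.07. Over all genes tested, 0.650% were higher and 0.509% lower by this rule. At such shares, 0 calls in a list as short as those of the single roles says little about that role. At an unadjusted p under 0.05, 12 were higher and 2 lower in Nod2-/- mice, where 12.9% and 10.2% of all genes tested were. The smallest adjusted p, 0.0656, was that of Smpdl3b. This relative of acid sphingomyelinase, held in the cell membrane, had 6.15 to 31.6 normalized counts in WT mice (median 13.9) and 13.7 to 71.8 in Nod2-/- mice (median 43.1). All Nod2-/- mice but 1 were above every WT mouse, and the log2 fold change was 1.49 (standard error 0.39). Smpdl3b is also in a table of changed genes that the study drew up from these same samples.

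Among the sphingomyelinases, 0 of 5 tested genes passed. At an unadjusted p under 0.05, 0 were lower and 2 higher, against 10.2% and 12.9% of all genes tested. Besides Smpdl3b this was Smpd3, the neutral sphingomyelinase of the Golgi and plasma membrane, with 29.7 to 242 normalized counts in WT mice (median 121) and 152 to 517 in Nod2-/- mice (median 257). WT replicate 3 was the highest WT mouse and Nod2-/- replicate 7 the highest Nod2-/- mouse. On the log2 scale Nod2-/- mice were 1.27 ± 0.44 (standard error) above WT mice, with an edgeR adjusted p of 0.116. Smpd2, Smpd4 and Smpdl3a had log2 fold changes of -0.02, -0.15 and -0.02.

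Of the other ceramidases, 3 of 4 were tested and 0 passed. Acer2, the alkaline ceramidase of the Golgi, had 200 to 401 normalized counts in WT mice (median 279) and 326 to 536 in Nod2-/- mice (median 445), and the log2 fold change came to 0.60 (standard error 0.17, edgeR adjusted p = 0.0769). The upper 4 Nod2-/- mice exceeded every WT mouse. The neutral ceramidase gene Asah2 and the alkaline ceramidase gene Acer3 had log2 fold changes of -0.24 and 0.11, and Acer1, an epidermal enzyme, had 0 counts in all mice.

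The genes that turn ceramide into sphingomyelin or carry it between membranes, 7 of 7 tested, gave 0 past the threshold. The sphingomyelin synthases Sgms1 and Sgms2 had log2 fold changes of 0.06 and -0.31, and that of Col4a3bp, which codes for the ceramide transfer protein, was 0.11. Cerk, the ceramide kinase, had 27.7 to 93.1 normalized counts in the WT group and 56.3 to 87.8 in the Nod2-/- group. Its WT maximum came from replicate 3, the next WT mouse having 46.7, and the log2 fold change went from 0.53 (adjusted p = 0.209 by edgeR) to 0.83 without that mouse (adjusted p = 0.0198). Gltp, a glycolipid transfer protein, had a log2 fold change of 0.58, which became 0.80 without WT replicate 3 (adjusted p = 0.177 and 0.0410 by edgeR). WT replicate 3 was the highest WT mouse for both genes, and leaving out the highest WT mouse by itself raises a fold change. Without it, 5.12% of all genes were higher at 5% FDR, against 0.650% with all mice.

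In glycosphingolipid synthesis, 5 of 5 genes were tested and 0 passed. Ugcg, the glucosylceramide synthase that opens this branch, had a log2 fold change of 0.24 (edgeR adjusted p = 0.285). That of B4galt6, 1 of 2 lactosylceramide synthases, was 1.31 (standard error 0.56, adjusted p = 0.182), while its counterpart B4galt5 had -0.07. B4galnt1, which makes complex gangliosides, had 0.51, and St3gal5, the GM3 synthase, had -0.37.

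Breakdown of glycosphingolipids, mostly lysosomal, was covered by 11 tested genes, of which 0 passed. At an unadjusted p under 0.05, 3 were higher and 1 lower, the latter being Gba2, which acts outside the lysosome, against 12.9% and 10.2% of all genes tested. Gm2a, the activator protein for ganglioside GM2, had 870 to 1621 normalized counts in WT mice (median 1056) and 1317 to 2582 in Nod2-/- mice (median 1648), and a log2 fold change of 0.55 (standard error 0.17, edgeR adjusted p = 0.0923). Nod2-/- replicate 4 was far above the next Nod2-/- mouse at 1712 and was also the highest in hepatocyte and cholangiocyte genes, and without it the log2 fold change was 0.42. Glb1, the lysosomal beta-galactosidase, had 0.30 and Neu1, a sialidase, 0.27 (edgeR adjusted p = 0.0823 and 0.1504), and Gba2, a glucosylceramidase, had -0.37. Gla, Galc, Psap, Hexa and Arsa lay between -0.01 and 0.17.

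For sphingosine 1-phosphate, the signaling lipid made from sphingosine, 8 of 12 genes were tested and 0 passed. Sphk2, Sgpl1 and Sgpp1, which make, cleave and dephosphorylate it, had log2 fold changes of -0.08, 0.04 and 0.13. Among the receptors, S1pr3 had 38.4 to 81.3 normalized counts in the WT group and 38.7 to 141 in the Nod2-/- group, and its log2 fold change was 0.69 (edgeR adjusted p = 0.151), and S1pr1, S1pr2 and S1pr5 had 0.03, 0.19 and 0.32. Sphk1, Sgpp2, Mfsd2b and S1pr4 were under the filter on low counts, with at most 10, 17, 23 and 21 counts in a mouse.

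**Figure D4:**
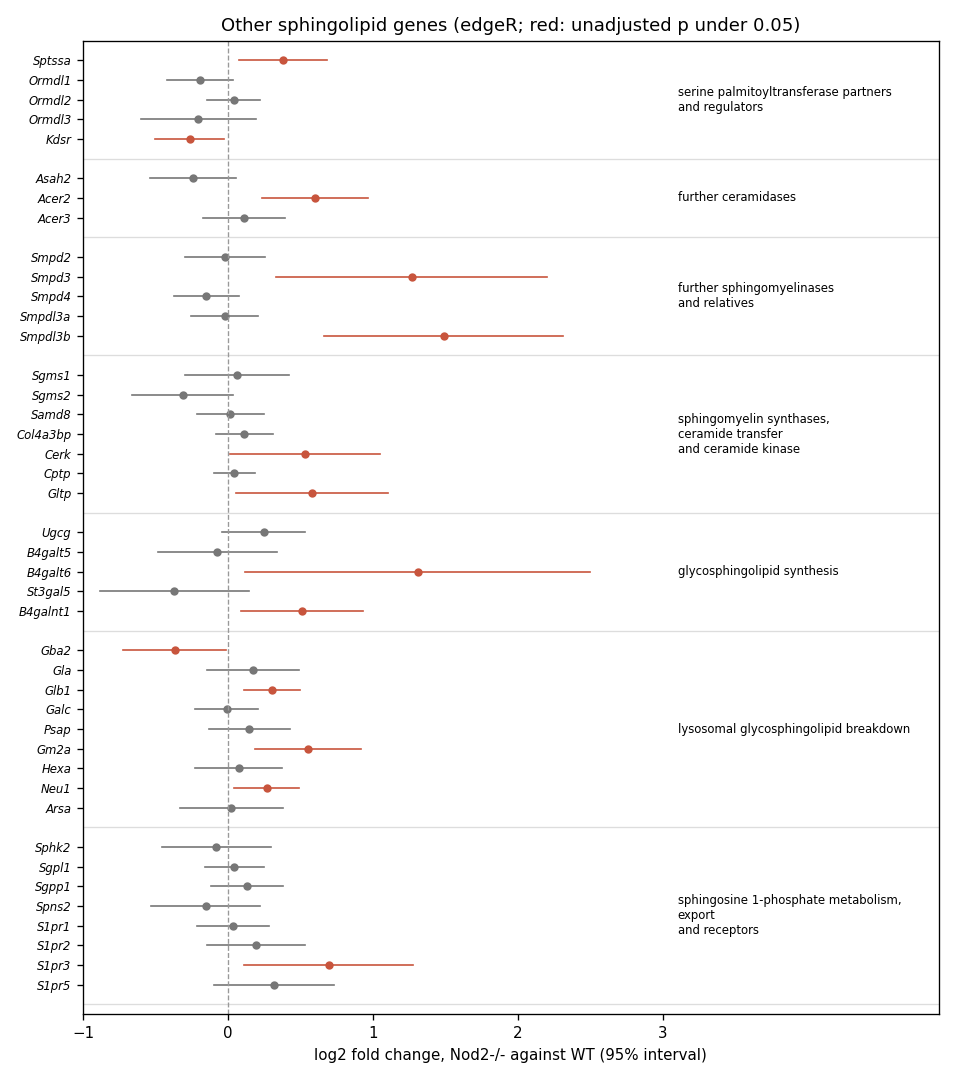
Log2 fold change of Nod2-/- against WT mice (x axis) with its 95% interval for the tested genes of the wider sphingolipid list (y axis, grouped by role, 2 not shown), by edgeR, with red for an unadjusted p under 0.05 and gray for the rest. The 12 red genes above 0 and 2 below it are spread over the roles, and the widest intervals are those of B4galt6, Smpd3 and Smpdl3b.

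The calls of this wider list depended on WT replicate 3 and on the test. Without that mouse, edgeR placed 8 of the other sphingolipid genes among the higher at 5% FDR (Acer2, Smpd3, Smpdl3b, Cerk, Gltp, B4galt6, Glb1 and Gm2a) and 0 among the lower, while it placed 5.12% and 3.37% of all genes there and 0 of the 10 enzymes in either direction. Without WT replicate 3 and Nod2-/- replicate 7 together, 4 were higher (Acer2, Smpdl3b, Cerk and Gm2a), against 3.04% of all genes, and 0 lower, against 1.19%. With limma's voomWithQualityWeights, which gives less weight to livers that stand apart, 6 were higher (Acer2, Smpdl3b, Cerk, B4galt6, Glb1 and Gm2a) and 0 lower, against 3.83% and 2.39% of all genes. Neither of these fits placed any of the 10 enzymes past the threshold. DESeq2 placed 4 among the higher (Acer2, Smpd3, Smpdl3b and Gm2a) and 0 among the lower, against 4.38% and 4.03% of all genes. Without Nod2-/- replicate 6, the lowest Nod2-/- mouse for Smpdl3b, that gene alone was past the threshold (log2 fold change 1.64, adjusted p = 0.0448 by edgeR), where 0.393% of all genes were higher and 0.208% lower. Leaving out its lowest Nod2-/- mouse by itself raises the fold change of Smpdl3b, which passed in 2 of the 13 fits without 1 mouse. WT replicate 3 had the highest normalized count among WT mice for each of the 8 genes called without it. Leaving out the highest WT mouse raises a fold change, so this follows in part from how the 8 were picked. The part of the high cholangiocyte, stellate cell and sinusoidal endothelial genes of WT replicate 3 in these counts was not tested.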

How the data were processed

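Polyadenylated liver RNA of 13 mice was sequenced with a stranded kit and paired reads. The submitters' processing notes name Trimmomatic 0.33, TopHat2 2.1.1 and build GRCm38. The authors deposited raw counts per gene and mouse, without normalization. The counting program and its use of strand are not given in the sources used here. A line with neither identifier nor counts was removed.

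Positions and exon lengths came from GENCODE M21 (GRCm38), which held 53274 of 53465 genes. Genes passing filterByExpr (13545, 99.9% of counts) entered edgeR 4.0.16 under R 4.3.3 (TMM, glmQLFit, glmQLFTest, two-sided, 5% FDR). Standard errors and 95% intervals derive from the F statistics, and RPKM used all annotated exons. Single genes were compared by two-sided exact permutation over 1716 assignments of the mice (smallest p 0.000583), and correlations over 13 mice by 100000 permutations. Depth sets the precision, and count floors cover counting error only. No library repeated another (chi-square over degrees of freedom 11.2 to 179 in 36 pairs within genotypes). The tools were tried on simulated data.

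Alternatives were DESeq2 1.42.0, limma 3.58.1 (voomWithQualityWeights), RLE scaling, an omitted or stricter count filter (each mouse with 10 counts or more), removal of the 20 most abundant genes, a replicate block, and leaving out mice. DESeq2's filter for 10% FDR and the transcript length were chosen after seeing the data. Named were the 10 enzymes and those of the 54 other genes with an unadjusted p under 0.05 (up to 20). Further genes that complete a role were added after their values were seen. Enzymes, gene lists and the 7 cell type lists were chosen with earlier results of these data known. Values of 2 lysosomal genes are not reported here.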

Additional observations from a re-analysis of the deposited data

Results flagged for a closer look

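Each enzyme gene and each of the 14 other sphingolipid genes with an unadjusted p under 0.05 was screened in both genotypes for a mouse set apart from its group, by Dixon's criterion, which flags about 1 in 20 groups by chance. Of 48 groups, 7 held such a mouse. WT replicate 3 was set apart on the high side in 4 of them, with 511 normalized counts of Cers6, 534 of Asah1, 81.3 of S1pr3 and 93.1 of Cerk, where the next WT mice had 349, 398, 49.7 and 46.7. Nod2-/- replicate 4 was set apart in 2, with 958 normalized counts of Sptlc2 and 2582 of Gm2a, the next Nod2-/- mice having 632 and 1712. WT replicate 6 was set apart for Degs2, with 6.55 normalized counts against 2.19 in the next mouse. What these livers have in common was not tested.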

How the results depend on the processing

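Over all genes, edgeR's 88 higher and 69 lower at 5% FDR became 630 and 579 with DESeq2, 605 and 549 with its filter for 10% FDR, 519 and 324 with limma's voomWithQualityWeights, and 408 and 159 without WT replicate 3 and Nod2-/- replicate 7. Leaving out 1 mouse gave 20 to 697 higher and 20 to 459 lower genes. With the replicate block 17 were higher and 18 lower, with 0 of the 10 enzymes and 0 of the other sphingolipid genes among them; same-numbered mice correlated between -0.30 and 0.30 in their deviations, so the numbers were not taken as pairs.

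Of the 10 enzymes, DESeq2 placed 2 higher and 1 lower past the threshold (log2 fold changes -0.34 for Cers2, 0.49 for Cers4, 0.64 for Cers5), and 1 and 1 with the filter for 10% FDR (-0.34 for Cers2, 0.49 for Cers4). Of all genes it placed 4.38% higher and 4.03% lower, and 3.81% and 3.45% with that filter. In each of the 13 fits without 1 mouse, 0 of the enzymes passed. Of the other sphingolipid genes, 4 were higher with DESeq2 under either filter, 6 with voomWithQualityWeights, 4 without WT replicate 3 and Nod2-/- replicate 7, and 0 to 8 when 1 mouse was left out, the 8 without WT replicate 3. Over all genes, 3.83% were higher with voomWithQualityWeights, 3.04% without WT replicate 3 and Nod2-/- replicate 7, and 5.12% without WT replicate 3. Sptlc1 turned to -0.0044 with voomWithQualityWeights and -0.01 without both mice, and ran from -0.023 to 0.056 when 1 mouse was left out, as did Smpd1 from -0.051 to 0.040. Correlations turned to 0.025 for Sptlc1 and Sptlc2 within WT, 0.19 for Cers5 and Cers6 within Nod2-/- mice, and -0.11 within WT and -0.35 without the 2 farthest mice for Asah1 and Smpd1, which ran from -0.21 to 0.21 when 1 mouse was left out. Why these values moved was not tested. Of 198 alternatives for the enzymes' fold changes, 183 kept direction and side of the threshold, as did 280 of 307 for the other named genes.

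RLE scaling moved the median log2 fold change by -0.01. Depth limits Degs2 and the genes under the count filter.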
